A study of Mus musculus with 6 samples.

Results

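The subject here is 8 genes of the intermediate filament family that brain cells use: the neurofilament and neuronal subunits Nefl, Nefm, Nefh, Ina (α-internexin) and Prph (peripherin), the astrocyte filament gene Gfap, and the vimentin and nestin genes Vim and Nes. They were chosen by gene symbol, with earlier results of these data known but by no cut on a measured value. All 8 were found among the 24421 genes of the count table, of which 24411 had a value in every library. Mouse brains were profiled by RiboTag sequencing, where Cre recombinase activates an HA-tagged form of the ribosomal protein Rpl22 and an HA antibody then immunoprecipitates (IP) the ribosomes of recombined cells with the mRNA on them. Input is RNA from the homogenate before the pull-down. The icKO mice were NG2CreERTM;Ank3F/F;Rpl22HA/+, an inducible knockout of Ank3, the gene of the scaffold protein ankyrin-G. Control mice were NG2CreERTM;Rpl22HA/+ and carried the same driver and ribosome tag.

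There were 2 icKO IP libraries, 2 control IP libraries, 1 icKO input and 1 control input. Mice of both genotypes received tamoxifen by intraperitoneal injection at 8 weeks of age, at 100 mg/kg/day for 5 days, and tissue was collected 1 month later, after perfusion with cold PBS. Each library came from 3 pooled brains, and 10% of the homogenate was set aside as input. IP libraries are labelled as biological replicates, but nothing says that the pools were made from different animals. The spread behind each p-value comes from these samples, pooled largely over genes, and may be technical. Replicate 1 of the icKO IP has cKO in its title and the icKO genotype in its label. The labels name oligodendrocytes as the cell type, and the NG2 driver is also known to be active in pericytes and vascular smooth muscle.

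Intermediate filaments are rope-like polymers that give cells tensile strength. In neurons the light, medium and heavy neurofilament proteins assemble with α-internexin or peripherin and fill large axons, where the long tails of the medium and heavy chains, heavily phosphorylated, help set axon calibre. Astrocytes build filaments of glial fibrillary acidic protein with vimentin, and nestin joins vimentin in progenitors and in cells of the vessel wall. Mature oligodendrocytes are known for having few or no intermediate filaments.

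Library totals ran from 18968806 to 23930812 counts, and levels are given as CPM, counts scaled to a common library size with TMM factors over the 6 libraries. At these depths 3 counts equal 0.125 to 0.158 CPM. Adjusted p-values throughout are Benjamini-Hochberg values over all genes tested, from the quasi-likelihood test of edgeR, with 0.05 as the threshold. Between IPs that test had 2 residual degrees of freedom a gene and 29.7 prior ones, drawn from all genes. Very small p-values thus rest mostly on the shared spread. The targeted gene Ank3 was counted at 1162 and 1167 CPM in icKO IPs against 1388 and 1359 CPM in control IPs, and 347 CPM in icKO input against 381 CPM in control input, a log2 change of -0.23 ± 0.02 (SE) between IPs (edgeR adjusted p = 1.31e-10). The whole gene was counted and the labels do not name the deleted exons, so this checks the genotype only weakly. Between IP and input, 14 of 14 mature oligodendrocyte markers, 12 of 12 oligodendrocyte precursor markers and 10 of 10 pericyte and vascular smooth muscle markers were higher in IP, while 15 of 15 neuron markers, 12 of 12 astrocyte markers and 10 of 10 microglia markers were lower.

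In genome build GRCm38 (mm10, GENCODE M21), Nefl (ENSMUSG00000022055.7) and Nefm (ENSMUSG00000022054.11) are neighbours on chromosome 14, at 68083863 to 68089095 on the plus strand and 68082590 to 68124846 on the minus strand. The Nefm transcript that overlaps Nefl, Nefm-202 (3680 nt), is the one whose length is used for Nefm below. It shares 1108 exonic bases with Nefl on opposite strands, 32.8% of the exonic bases of Nefl. Whether the authors counted by strand is not given in the sources used here, and reads from those bases therefore cannot be assigned to either gene with certainty. Nefh (ENSMUSG00000020396.8) lies on chromosome 11 at 4938754 to 4948064, minus strand. Ina (ENSMUSG00000034336.3) lies on chromosome 19 at 47014698 to 47025327, plus strand, and shares 456 exonic bases (14.1% of its own) with Nt5c2 on the other strand. Prph (ENSMUSG00000023484.14) lies on chromosome 15 at 99055174 to 99058978, plus strand. Gfap (ENSMUSG00000020932.14) lies on chromosome 11 at 102887336 to 102900912, minus strand. Vim (ENSMUSG00000026728.9) lies on chromosome 2 at 13573927 to 13582826, and Nes (ENSMUSG00000004891.16) on chromosome 3 at 87971078 to 87980451, both on the plus strand.

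RefSeq's table of promoters (GRCm38.p6, 250 bases before to 50 after the annotated start) matched 5 of the 8 genes, Ina, Prph, Gfap, Vim and Nes. The promoters of Ina and Gfap, which were higher in icKO than in control IPs, and of Vim and Nes, which were lower there, are printed 5′ to 3′ along each gene's own strand. Capitals mark matches on either strand to the TATA box TATAAA, to the CCAAT box CCAAT, and to the GC box GGGCGG. None of these 3 motifs overlaps another in these windows.
Ina, chr19:47014431-47014730, plus strand: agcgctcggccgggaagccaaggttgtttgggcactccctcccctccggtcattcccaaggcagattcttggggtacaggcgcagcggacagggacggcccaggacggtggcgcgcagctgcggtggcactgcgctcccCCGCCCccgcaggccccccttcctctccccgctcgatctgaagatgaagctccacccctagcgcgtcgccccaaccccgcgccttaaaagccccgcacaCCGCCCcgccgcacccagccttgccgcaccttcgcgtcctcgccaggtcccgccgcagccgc
Gfap, chr11:102897151-102897450, minus strand: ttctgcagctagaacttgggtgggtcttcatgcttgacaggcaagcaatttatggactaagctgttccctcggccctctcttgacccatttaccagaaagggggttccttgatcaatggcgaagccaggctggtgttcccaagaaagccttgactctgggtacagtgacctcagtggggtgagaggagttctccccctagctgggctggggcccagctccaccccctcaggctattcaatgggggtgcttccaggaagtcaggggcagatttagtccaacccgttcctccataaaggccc
Vim, chr2:13574061-13574360, plus strand: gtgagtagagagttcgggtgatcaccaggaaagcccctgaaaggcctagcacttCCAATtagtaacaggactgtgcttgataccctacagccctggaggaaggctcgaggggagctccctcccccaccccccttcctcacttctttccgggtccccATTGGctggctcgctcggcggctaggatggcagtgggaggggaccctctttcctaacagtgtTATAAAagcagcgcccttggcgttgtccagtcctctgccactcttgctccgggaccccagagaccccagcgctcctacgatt
Nes, chr3:87970843-87971142, plus strand: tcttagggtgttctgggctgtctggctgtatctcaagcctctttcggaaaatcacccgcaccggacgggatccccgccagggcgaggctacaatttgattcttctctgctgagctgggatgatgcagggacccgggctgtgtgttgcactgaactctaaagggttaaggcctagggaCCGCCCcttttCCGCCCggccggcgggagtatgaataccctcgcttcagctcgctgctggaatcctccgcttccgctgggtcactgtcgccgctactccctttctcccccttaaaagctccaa
The Vim window held 1 TATA box, at base 219 of the window, and 2 CCAAT boxes. The windows of Ina and Nes each held 2 GC boxes, all on the reverse strand, with no TATA or CCAAT box, and the Gfap window held no exact match to any of the 3. That of Prph held 1 TATA box and 1 GC box. Among 32851 promoters of the same length, 13.6% held the TATA box, 37.4% the CCAAT box and 35.7% the GC box. The share of G and C bases was 71.7% for Ina, 64.7% for Prph, 55.7% for Gfap, 59.3% for Vim and 58.7% for Nes. A match is a run of letters, not evidence of a factor at work, and the pair that was lower in icKO IPs, Vim and Nes, had no motif in common.

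The first comparison asks which of these mRNAs differed between icKO and control IPs. Neuron and astrocyte marker mRNAs were also counted in the IPs, below their input levels. How much of each IP level came from tagged ribosomes was not tested. Of the 8 genes, 7 passed the filter on low counts, and all 7 passed the test: 5 were higher in icKO than in control IPs (Nefl, Nefm, Nefh, Ina and Gfap) and 2 were lower (Vim and Nes). The background is high, since 47.2% of 15069 genes tested passed, 22.1% higher and 25.2% lower, so a pass alone says little and sizes are given for each gene. The log2 changes ran from -0.56 to 0.89 with a median of 0.42, beside a median of 0.0033 over all genes tested. When libraries were scaled to mature oligodendrocyte markers instead, which moves the median gene by 0.70, the 5 higher genes stayed higher, while Vim (0.21) and Nes (0.14) became higher too.

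**Figure D1:**
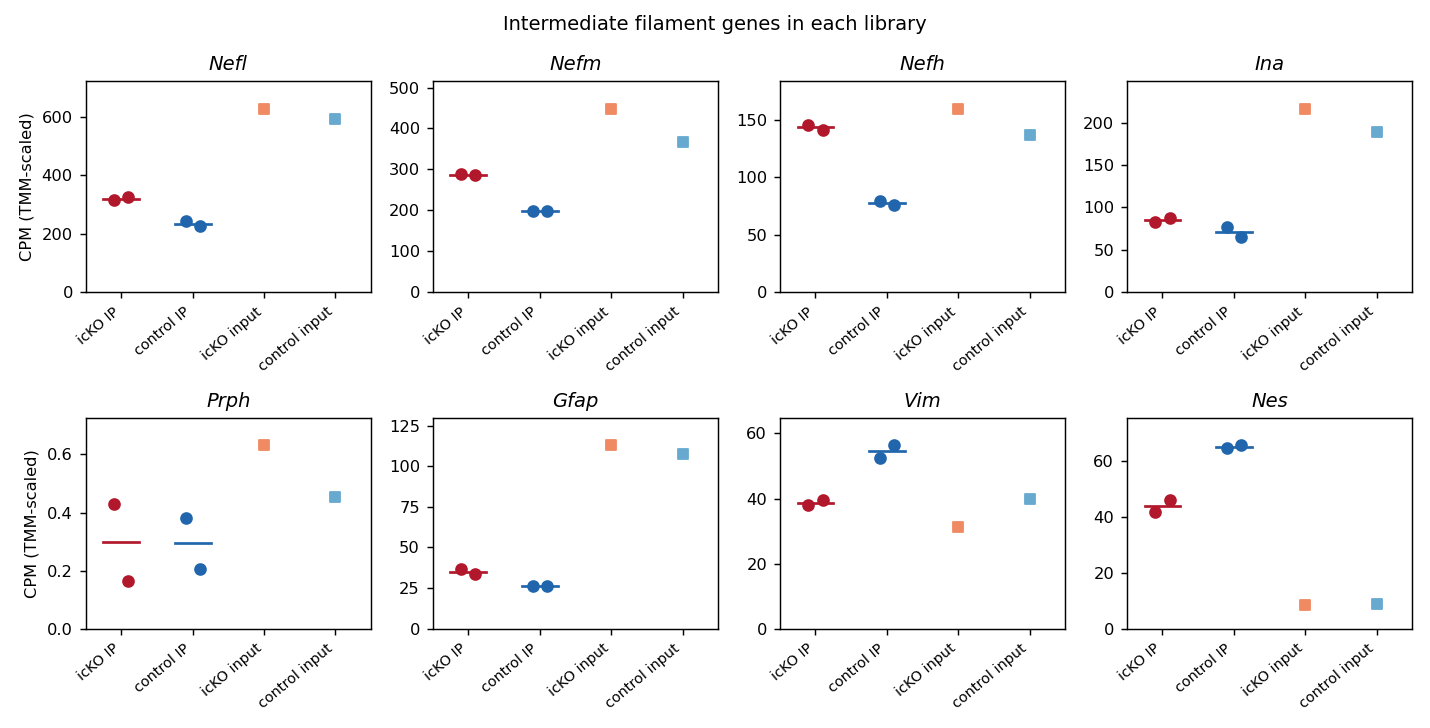
CPM (TMM-scaled, linear axes from 0) of the 8 genes in each library, with circles for icKO IP and control IP (bar at the mean of 2) and squares for the single icKO input and control input. Nefl, Nefm, Nefh, Ina and Gfap lie higher in both icKO IPs than in both control IPs on this scaling, Vim and Nes lie lower (higher once scaled to mature oligodendrocyte markers), and Nes is the gene furthest above input.

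Nefh, the heavy neurofilament chain, changed most. It was at 146 and 141 CPM in icKO IPs against 79.5 and 75.9 CPM in control IPs, and 159.7 CPM in icKO input against 137 CPM in control input. Both icKO IPs lay well above both control IPs and close to the level of the whole homogenate. Means were 144 ± 3.16 CPM in icKO IPs and 77.7 ± 2.58 CPM in control IPs (SD, n = 2 each), a 1.85-fold difference, or a log2 change of 0.89 ± 0.05 (SE, edgeR adjusted p = 3.10e-17).

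Nefm, the medium chain, was at 289 and 285 CPM in icKO IPs against 198 and 199 CPM in control IPs, and 449 CPM in icKO input against 366 CPM in control input. Replicates of each IP group were within a few CPM of each other, and the groups did not overlap. The log2 change between IPs was 0.54 ± 0.03 (SE, edgeR adjusted p = 1.93e-15), a 1.45-fold rise. Nefl, the light chain on which the triplet assembles, was at 315 and 325 CPM in icKO IPs against 242 and 227 CPM in control IPs, and 628 CPM in icKO input against 591 CPM in control input. It had the highest level of the 8 in every library, in CPM and per transcript length, and again both icKO IPs were above both control IPs. Its log2 change was 0.45 ± 0.03 (SE, edgeR adjusted p = 2.93e-13), a 1.37-fold rise.

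Ina, the subunit that neurons express early and that co-assembles with the triplet in the adult brain, moved least of the genes called. It was at 82.6 and 87.5 CPM in icKO IPs against 77.0 and 64.6 CPM in control IPs, and 217 CPM in icKO input against 189 CPM in control input. The groups did not overlap, but the control IPs differed from each other by more than control replicate 1 differed from the lower icKO IP. The log2 change was 0.27 ± 0.06 (SE, edgeR adjusted p = 4.26e-04). Without control IP replicate 2 it was 0.14 (edgeR adjusted p = 0.0826), and DESeq2 gave an adjusted p of 0.0908, so the call on Ina rests on that library and on the method. Prph, which neurons with peripheral axons use, was barely detected, at 8 and 3 counts in icKO IPs against 8 and 5 in control IPs, and 13 in icKO input against 10 in control input. It did not pass the filter in the IP comparison, its groups overlapped, and no difference was detectable at this depth.

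Neuron markers had no common direction beside the triplet. Of 15 neuron markers, 3 were higher, 5 lower and 7 not called in icKO against control IPs, with log2 changes from -0.22 to 0.30 and a median of -0.05, so that Nefl, Nefm and Nefh lay above the highest of them and Ina (0.27) inside their range. The summed neuron marker level was 2049 and 1971 CPM in the icKO IPs and 2014 and 2070 CPM in the control IPs, overlapping, against 9996 CPM in the icKO input and 9744 CPM in the control input, and no marker was at 0. Of 10 markers of projection neurons of brainstem and spinal type, cells rich in neurofilament, 6 could be tested, of which 3 were higher, 1 lower and 2 not called, with log2 changes from -1.24 to 0.90 and a median of 0.39, a range that holds Nefl, Nefm, Nefh and Ina. Their summed level was 23.6 and 23.4 CPM in the icKO IPs and 20.3 and 23.7 CPM in the control IPs, with Calca among the markers at 0 in at least 1 IP. Their part in the neurofilament result was not tested. In bulk libraries, more cells of a type and more RNA per cell cannot be told apart.

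**Figure D2:**
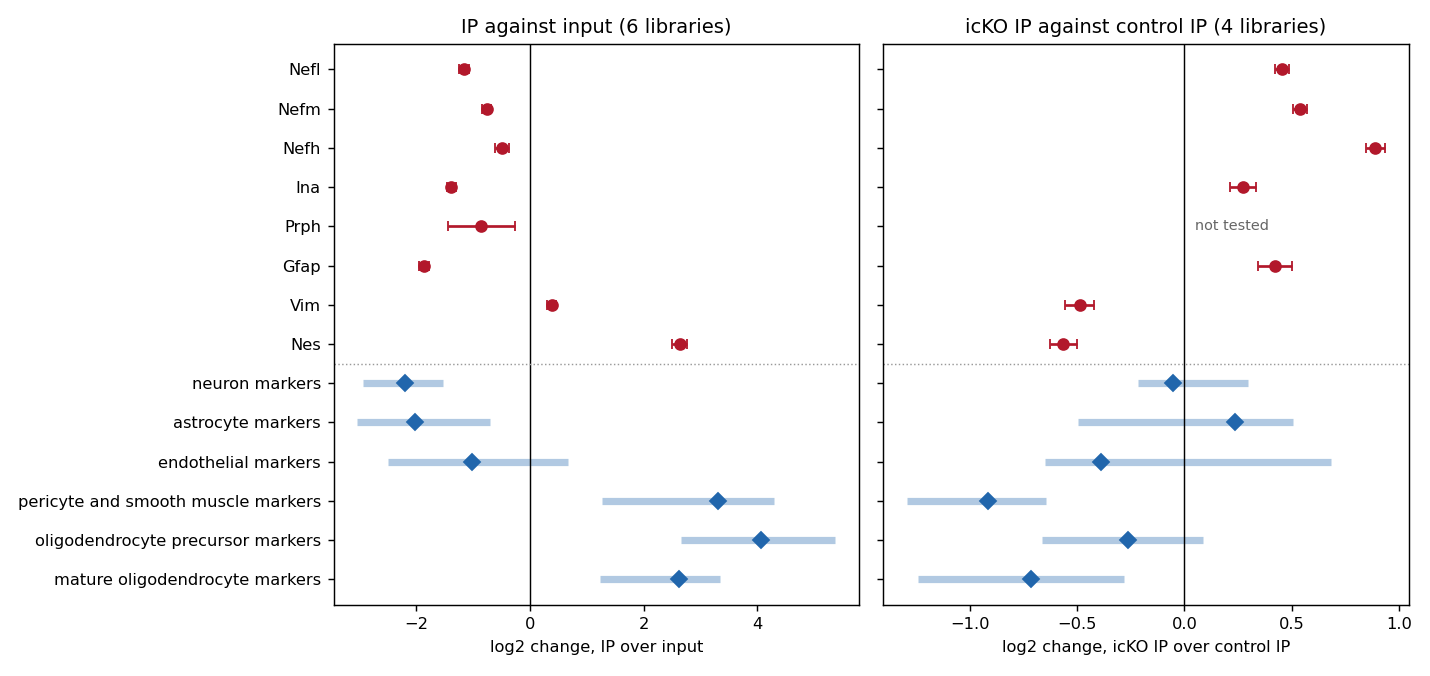
Log2 change of each of the 8 genes (red circles, bars SE of the edgeR fit) and of marker lists (blue diamonds at the median, pale bars from lowest to highest marker), for IP against input on the left and icKO IP against control IP on the right, both TMM-scaled. Nefl, Nefm, Nefh and Ina lie above the 15 neuron markers on the left (and above 0 once scaled to neuron and astrocyte markers), and Nefl, Nefm and Nefh do so on the right, where Vim and Nes lie below 0 (above it once scaled to mature oligodendrocyte markers, which also takes Vim below 0 on the left).

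Gfap, the filament gene that defines astrocytes, was at 36.6 and 33.6 CPM in icKO IPs against 26.2 and 26.3 CPM in control IPs, and 113 CPM in icKO input against 107 CPM in control input. Both icKO IPs were above both control IPs, and all 4 were far below the inputs. The log2 change between IPs was 0.42 ± 0.08 (SE, edgeR adjusted p = 5.15e-05), a 1.34-fold rise. Astrocyte markers leaned the same way: of 12, 6 were higher, 1 lower and 5 not called, with log2 changes from -0.50 to 0.51 and a median of 0.24, so Gfap lay inside their range. Their summed level was 2096 and 2059 CPM in the icKO IPs and 1994 and 1996 CPM in the control IPs, with none at 0, and their part in the Gfap result was not tested.

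Vim, which encodes the filament protein of mesenchymal, endothelial and many glial cells, was at 38.0 and 39.6 CPM in icKO IPs against 52.5 and 56.4 CPM in control IPs, and 31.3 CPM in icKO input against 39.9 CPM in control input. Both icKO IPs were below both control IPs, above the icKO input and about level with the control input. The log2 change was -0.49 ± 0.07 (SE, edgeR adjusted p = 2.46e-07). Nes, which marks progenitors and vessel wall cells, was at 41.7 and 46.2 CPM in icKO IPs against 64.6 and 65.7 CPM in control IPs, and 8.55 CPM in icKO input against 8.76 CPM in control input. It was far above input in every IP, and lower in both icKO IPs than in both control IPs, with a log2 change of -0.56 ± 0.06 (SE, edgeR adjusted p = 4.85e-09).

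Marker lists of glia and of cells of the vessel wall and ventricle lining were read in the same libraries. All 10 pericyte and vascular smooth muscle markers were lower in icKO IPs, with a median log2 change of -0.92 and summed levels of 979 and 996 CPM in icKO IPs and 1867 and 1882 CPM in control IPs. Of 12 oligodendrocyte precursor markers, 10 were lower and 1 higher, with a median of -0.26 and sums of 8047 and 8141 CPM in icKO IPs and 9385 and 9482 CPM in control IPs. All 14 mature oligodendrocyte markers were lower, with a median of -0.71 and sums of 16180 and 16103 CPM in icKO IPs against 26202 and 26375 CPM in control IPs. Of 10 endothelial markers 1 was higher, 2 were lower and 7 not called (median -0.39, sums of 93.3 and 101 CPM in icKO IPs and 130 and 134 CPM in control IPs). Of 8 ependymal and tanycyte markers, 4 could be tested and 2 were lower, with a median of -0.61, sums of 26.1 and 26.4 CPM in icKO IPs and 41.8 and 39.3 CPM in control IPs, and Tmem212 and Rax at 0 in at least 1 IP. Fibroblast markers had 1 higher and none lower of 4 tested, with a median log2 change of -0.02. Their sums were 55.7 and 53.4 CPM in icKO IPs and 38.3 and 41.0 CPM in control IPs. Of 10 microglia markers 1 was higher, 2 were lower and 7 not called, with overlapping sums of 87.2 and 92.5 CPM in icKO IPs and 89.9 and 80.6 CPM in control IPs. The scaling to mature oligodendrocyte markers adds 0.70 to each log2 change, more than the median falls of the precursor, endothelial and ependymal lists. Some of these levels depended on how a list was summarised. As log2 icKO over control IP, ependymal and tanycyte markers were at -0.63 by sum and 0.11 by median log2 CPM. Fibroblast markers were at 0.46 by sum and -0.15 by median, and microglia markers at 0.08 and -0.07. The part of these lists in the Vim and Nes results was not tested.

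The inputs ask whether the same genes differed in whole homogenate, with 1 library a genotype and therefore no test. None of the 8 genes differed by 1.5-fold between icKO and control input, against 10.4% of 15936 genes (5.43% higher and 4.97% lower). Nefm was at a log2 ratio of icKO over control input of 0.29 (95% counting interval 0.25 to 0.34), Nefh at 0.22 (0.15 to 0.30), Ina at 0.20 (0.13 to 0.26) and Nefl at 0.09 (0.05 to 0.12). All 4 leaned the way they did in IP. Gfap was at 0.07 (-0.01 to 0.16), Nes at -0.03 (-0.34 to 0.27) and Prph at 0.41 (-0.83 to 1.83), intervals that include 0, while Vim was at -0.35 (-0.50 to -0.20). These intervals cover counting error only. Counts of the inputs, which also differ in genotype, differed by 5.63 times sampling noise over all genes (chi-square per degree of freedom). Within a genotype the value was 2.13 times for the icKO IP pair and 2.19 times for the control IP pair.

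**Figure D3:**
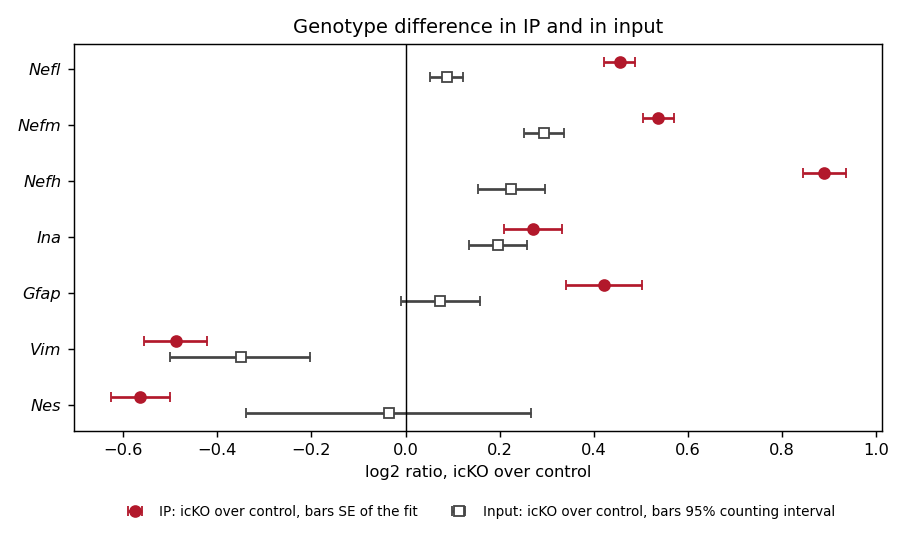
Log2 ratio of icKO over control for the 7 genes tested in IP, with filled circles for IP (bars SE of the edgeR fit) and open squares for the single input libraries (bars 95% counting interval). Nefl, Nefm, Nefh and Gfap lie further right in IP than in input, and Nes further left, on the TMM scale (scaled to mature oligodendrocyte markers, Vim and Nes in IP lie above 0).

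The difference between these genotype changes, icKO over control in IP minus icKO over control in input, was tested on the assumption that a lone input varies as much as the IP pairs do. Of the 8 genes 5 passed, 4 with a larger value in IP and 1 with a smaller one, against 23.6% of 15936 genes (9.67% higher and 13.9% lower). The difference was 0.66 ± 0.07 for Nefh (log2 ± SE, edgeR adjusted p = 4.82e-08), 0.36 ± 0.05 for Nefl (edgeR adjusted p = 3.40e-06), and 0.24 ± 0.05 for Nefm (edgeR adjusted p = 7.20e-04). For the same difference the 15 neuron markers ran from -0.40 to 0.38, so Nefh lay above all of them and Nefl and Nefm inside their range. The triplet values rest on input libraries with no spread of their own. The inputs differed by a larger multiple of sampling noise than either IP pair did, a value that includes their difference in genotype. Gfap had 0.34 ± 0.10 (edgeR adjusted p = 0.0143) and Nes -0.53 ± 0.18 (edgeR adjusted p = 0.0313), and both calls were lost without icKO IP replicate 1 (edgeR adjusted p = 0.0577 for Gfap and 0.0586 for Nes) and with DESeq2 (adjusted p = 0.166 for Gfap and 0.105 for Nes). Ina (0.07, edgeR adjusted p = 0.619), Vim (-0.14, 0.455) and Prph (-0.43, 0.856) did not pass. Scaled to mature oligodendrocyte markers, Nes was at 0.16 and not called (edgeR adjusted p = 0.454), and Vim was at 0.55, with the triplet and Gfap still larger in IP.

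The comparison of IP with input asks how far the pull-down held or lost each mRNA relative to the average gene. Of the 8 genes, 2 were higher in IP (Nes and Vim), 5 were lower (Gfap, Ina, Nefl, Nefm and Nefh) and Prph was not called, against 68.4% of 15936 genes called, 34.2% higher and 34.2% lower. These directions are relative to the median gene: scaled to neuron and astrocyte markers, which moves that median by 1.97, Nefh (1.47), Nefm (1.20), Nefl (0.81) and Ina (0.58) were higher in IP, and Gfap (0.11, edgeR adjusted p = 0.304) was not called. Scaled to mature oligodendrocyte markers, a shift of -2.54, Vim was lower (-2.16) and Nes was at 0.09 (edgeR adjusted p = 0.644).

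Nes had a log2 change, IP over input, of 2.63 ± 0.13 (SE, edgeR adjusted p = 7.37e-08), a 6.21-fold difference. That is near the medians of the mature oligodendrocyte markers (2.63) and below those of pericyte and smooth muscle markers (3.30) and precursor markers (4.07). Vim stood at 0.38 ± 0.08 (SE, edgeR adjusted p = 0.0019), below the median of each of these lists, and was not called without the genotype term (0.39, edgeR adjusted p = 0.0924). Endothelial markers, of cells that also make vimentin, had a median of -1.03, with 8 of 10 lower. Gfap stood at -1.86 ± 0.09 (SE, edgeR adjusted p = 5.48e-08), close to the astrocyte marker median of -2.03.

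Among the neuronal genes Ina stood at -1.38 ± 0.08 (SE, edgeR adjusted p = 1.92e-07), Nefl at -1.16 ± 0.09 (edgeR adjusted p = 1.09e-06) and Nefm at -0.77 ± 0.07 (edgeR adjusted p = 6.54e-06). Nefh was depleted least, at -0.49 ± 0.12 (edgeR adjusted p = 0.0049), and Prph was at -0.86 ± 0.58 (edgeR adjusted p = 0.21). The 15 neuron markers ran from -2.94 to -1.53 with a median of -2.20, so Nefl, Nefm, Nefh and Ina were each depleted less than all 15. They lay inside the range of the projection neuron markers of brainstem and spinal type, of which 9 were tested and which ran from -3.92 to -0.40 with a median of -1.91, 7 of them lower and 2 not called. The value for Nefh depended on which input it was set against, at -0.16 without the control input (edgeR adjusted p = 0.0063) and -0.82 without the icKO input, and it was not called without the genotype term (-0.42, edgeR adjusted p = 0.196). Within genotypes, from the fit of the 4 groups, Nefh in IP over input was at -0.15 ± 0.05 in icKO and -0.82 ± 0.05 in control (log2 ± SE).

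For the other 2 chains these values were -0.97 ± 0.04 in icKO and -1.34 ± 0.04 in control for Nefl, and -0.64 ± 0.04 in icKO and -0.88 ± 0.04 in control for Nefm. Ina was at -1.35 in icKO and -1.42 in control, and Gfap at -1.69 in icKO and -2.03 in control. Nes was enriched in both genotypes, at 2.36 in icKO and 2.89 in control, and Vim at 0.31 in icKO and 0.45 in control. The tests of these genotype differences are those of the difference between IP and input given above.

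The make-up of the triplet differed between libraries as well as its amount. Nefh made up 19.4% and 18.8% of the summed Nefl, Nefm and Nefh counts in icKO IPs against 15.3% and 15.1% in control IPs, and 12.9% in icKO input against 12.5% in control input. Both icKO IPs were above both control IPs, and all 4 IPs were above both inputs. The 95% Wilson intervals, which cover counting error only, were 18.8% to 20.1% and 18.2% to 19.5% in icKO IPs against 14.7% to 16.0% and 14.5% to 15.8% in control IPs, and 12.5% to 13.3% in icKO input against 12.1% to 12.9% in control input, so the input intervals overlapped. Nefl made up 42.0% and 43.2% in icKO IPs against 46.6% and 45.2% in control IPs, and 50.8% in icKO input against 54.1% in control input, the reverse order. Nefm stayed within 33.5% to 39.7% over the 6 libraries, and its share in the icKO IPs (38.6% and 38.0%) overlapped that in the control IPs (38.1% and 39.7%). With no more than 2 libraries a group these shares were not tested. They do not depend on how libraries are scaled against each other.

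**Figure D4:**
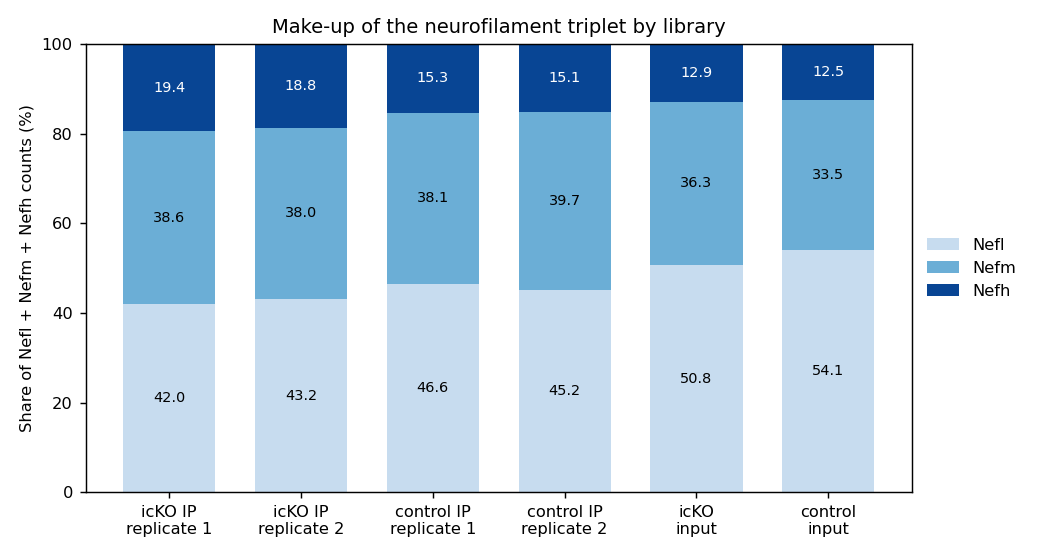
Share of Nefl, Nefm and Nefh in the summed counts of the neurofilament triplet, in percent, 1 stacked bar per library. The Nefh share is 19.4% and 18.8% in icKO IPs against 15.3% and 15.1% in control IPs, and 12.9% in icKO input against 12.5% in control input.

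Levels can be compared between genes only per transcript length, in CPM per kilobase. On that scale the order in the icKO IPs was Nefl (94.6 ± 2.01, SD, n = 2), Nefm (78.1 ± 0.701), Nefh (35.9 ± 0.791), Ina (26.2 ± 1.08), Vim (17.7 ± 0.506), Gfap (13.3 ± 0.816), Nes (7.18 ± 0.520) and Prph (0.160 ± 0.0998). Each step in that order was larger than the spread of the pair. In the control IPs it was Nefl (69.2 ± 3.15), Nefm (53.9 ± 0.314), Vim (24.8 ± 1.24), Ina (21.9, from 23.8 and 20.0), Nefh (19.5 ± 0.647), Nes (10.6 ± 0.134), Gfap (9.93 ± 0.0229) and Prph (0.158 ± 0.0664). There the steps from Vim to Ina and from Ina to Nefh were no larger than the distance between both Ina libraries. Nefh was thus the third of 8 in icKO IPs and the fifth in control IPs. In the inputs the order was the same in both genotypes, Nefl, Nefm, Ina, Gfap, Nefh, Vim, Nes and Prph, with Nefl at 186 CPM per kilobase in icKO input and 175 in control input, and Nes at 1.40 in icKO input and 1.43 in control input. The 4 neurofilament genes Nefl, Nefm, Nefh and Ina summed to 832 and 839 CPM in icKO IPs against 596 and 566 CPM in control IPs, and 1453 CPM in icKO input against 1283 CPM in control input.

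Other intermediate filament genes did not follow a single direction. Of 23 listed (keratins, lamins, desmin, synemin, syncoilin and lens filament genes), 15 could be tested between icKO and control IPs. Of these 2 were higher, 4 lower and 9 not called, with a median log2 change of 0.04. Over all genes tested there, 22.1% were higher and 25.2% lower. The keratin gene Krt77 (0.99, edgeR adjusted p = 0.0089) and Synm, whose product synemin co-assembles with vimentin and desmin (0.22, edgeR adjusted p = 1.18e-05), were higher. Des, the muscle-type filament gene also found in vessel walls (-0.71, edgeR adjusted p = 6.36e-05), the keratin gene Krt1 (-0.51, edgeR adjusted p = 0.0404), the lens filament gene Bfsp2 (-0.36, edgeR adjusted p = 7.27e-07) and the lamin gene Lmna (-0.18, edgeR adjusted p = 0.0339) were lower, although the shift of 0.70 under oligodendrocyte marker scaling exceeds the falls of Krt1, Bfsp2 and Lmna. In IP against input 7 of 18 tested were higher and 9 lower, beside 34.2% each way over all genes tested. Among called genes of the list at a mean of at least 1 CPM, rises were led by Bfsp2 (4.15), Des (3.77), Lmnb1 (1.86) and Synm. Falls at that mean level were led by Krt12 (-2.54), Krt77 (-1.82), Krt222 (-1.51) and Krt10 (-0.96) on the log2 scale. Krt77 (1.24, edgeR adjusted p = 0.0169) was the only 1 of 18 whose genotype change differed between IP and input, against 23.6% of all genes tested.

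Genes whose proteins link filaments to other structures, or phosphorylate, fold or carry them, split both ways. Of 29 listed and tested between IPs, 10 were higher in icKO, 11 lower and 8 not called, with a median log2 change of -0.03. Over all genes tested there, 22.1% were higher and 25.2% lower. Among the largest rises were the plakin genes Dsp (2.46, at a mean of 2.82 CPM), Macf1 (0.93) and Plec (0.93), whose products tie filaments to microtubules, actin or junctions. The plakin genes Ppl (0.92, edgeR adjusted p = 0.0175) and Dst (0.85, edgeR adjusted p = 6.81e-28) were higher too. Eppk1 (0.65, edgeR adjusted p = 0.389) and Evpl (0.20, edgeR adjusted p = 0.317), also plakin genes, did not pass. Myo5a, a motor that binds neurofilaments, was at 1.08. The small heat shock genes Cryab (-0.77) and Hspb1 (-0.63), the kinase gene Mapk3 (-0.66) and the phosphatase gene Ppp2ca (-0.34) were lower, of which Cryab alone fell by more than that shift of 0.70. In IP against input 11 were higher and 14 lower, beside 34.2% each way over all genes tested. Dst (3.33), Macf1 (3.03), Plec (2.82) and the mitotic kinase gene Aurkb (2.15) were at the top. Cdk5r1, the activator of a neurofilament kinase, was at the bottom (-1.97). The genotype change differed between IP and input for 15 of the 29, 7 with a higher and 8 with a lower value. Over all genes tested, 9.67% had a higher and 13.9% a lower value. Myo5a (1.03), Macf1 (0.91), Plec (0.89) and Dst (0.79) were among those on the higher side. Dsp, with the largest rise between IPs, had a difference of 0.98 ± 0.54 (log2 ± SE) and was not called. On the lower side were Cryab (-1.18), the co-chaperone gene Bag3 (-0.68), Mapk3 (-0.48) and Ppp2ca (-0.39), and the shift of 0.69 under oligodendrocyte marker scaling exceeds the last 3 of these.

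The genes most like each member in pattern were found by the distance between their centred log2 CPM over the 6 libraries, among 10086 genes with a mean of at least 10 CPM. This describes likeness over 6 libraries that share 4 groups, and nothing is read from it about function. Nefl was nearest to Ankrd33b (0.065) and Phf24 (0.076), Nefm to Sh3rf2 (0.11) and Mical2 (0.15), and Nefh to Epha10 (0.16). Epha10 was at 41.2 and 44.5 CPM in icKO IPs against 24.3 and 22.6 CPM in control IPs, and 46.3 CPM in icKO input against 37.9 CPM in control input, the same high icKO IPs as Nefh. Ina was nearest to Pdgfb (0.13) and Slc7a11 (0.16), and Gfap to Stac2 (0.072) and Hrh3 (0.073). Vim was nearest to Dcdc2a (0.14) and Sp2 (0.15). Nes was nearest to Slc44a1 (0.15), a choline transporter gene, and Gjc3 (0.16), a connexin gene of oligodendrocytes. Gjc3 was at 158 and 159 CPM in icKO IPs against 247 and 252 CPM in control IPs, and 34.1 CPM in icKO input against 33.6 CPM in control input. Prph was nearest to Arl15 (0.60) and Msra (0.65). Its own level is far below the 10 CPM limit of this search, so genes as rare were not compared.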

How the data were processed

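The authors deposited raw read counts per gene symbol, without normalization. Per the submitters' processing notes, Trimmomatic 0.39 was used for trimming and STAR 2.7.10b for alignment to mm10. Libraries were made with a stranded total RNA kit for low input, per the labels' protocols. For the counter, its annotation, its strand setting and duplicate handling, details were not given in the sources used here. From the counts, 10 genes without input values were left out. Counts were scaled by TMM and tested in edgeR 4.0.16 (R 4.3.3) with filterByExpr and the two-sided quasi-likelihood test: the 4 IP libraries by genotype, all 6 by IP or input with genotype as a term, and all 6 as 4 groups for the difference of changes. The step was tested on simulated data. Between inputs, log2 ratios used a prior count of 2, with exact counting intervals at 95%. Transcript lengths came from GENCODE M21. Named were all 8 genes, Ank3, the 4 largest called rises and falls of the 2 filament-related lists at a mean of at least 1 CPM, the other plakin genes, and the 2 nearest genes of each member. The genes and lists were chosen with earlier results of these data known. Alternatives were other scalings, no filter, DESeq2 1.42.0, a transcript length offset, a replicate block, no genotype term, another prior count and leaving out each library. Replicate numbers did not pair the IPs (correlation of deviations -0.014 over 9978 genes). A few genes that this rule or the marker lists would name are not reported here.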

Additional observations from a re-analysis of the deposited data

Results flagged for a closer look

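For 5 of the 8 genes the icKO over control change in IP differed from that in input in the quasi-likelihood test of edgeR (Benjamini-Hochberg adjusted p), which takes a lone input to vary as much as the IP pairs do. Over all 15936 genes tested, 23.6% passed. The log2 difference, IP minus input, was 0.66 for Nefh (adjusted p = 4.82e-08), 0.36 for Nefl (adjusted p = 3.40e-06), 0.34 for Gfap (adjusted p = 0.0143), 0.24 for Nefm (adjusted p = 7.20e-04) and -0.53 for Nes (adjusted p = 0.0313). In IP both icKO libraries lay on the same side of both control libraries for each of the 5. These 5 were picked by a test on the same libraries, so that separation adds no support. The share of all genes that separate so was not counted, and 47.2% of 15069 were called between IPs. The calls on Gfap and Nes were lost without icKO IP replicate 1 (adjusted p = 0.0577 for Gfap and 0.0586 for Nes) and with DESeq2 (adjusted p = 0.166 for Gfap and 0.105 for Nes), and Nes was at 0.16 when scaled to mature oligodendrocyte markers.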

How the results depend on the processing

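Of 314 single-gene values under the alternatives, 286 kept direction and side of the threshold or, for input ratios, stayed inside their counting interval. Of the rest 15 changed direction, 9 lost their call and 2 gained one. The other 2, both input ratios, moved past their counting interval (0.03 for Nefl and 0.23 for Nefm when scaled to neuron and astrocyte markers). Most changes came from the scalings to cell type markers. Scaled to mature oligodendrocyte markers, 12889 genes were called between IPs (12786 higher, 103 lower, a shift of 0.70 in all genes) and 10430 for the difference of changes (10373 higher, 57 lower, a shift of 0.69). Vim (0.21) and Nes (0.14) then changed direction between IPs, Vim (-2.16) in IP against input, and Prph (0.24), Vim (0.55) and Nes (0.16) in the difference of changes. Scaled to neuron and astrocyte markers, IP against input changed direction for Nefl (0.81), Nefm (1.20), Nefh (1.47), Ina (0.58), Prph (1.08) and Gfap (0.11). With DESeq2 the difference of changes was called for 1705 genes (633 higher, 1072 lower) and 3 of the 8. Leaving out an IP library gave 3 to 5 of the 8 called there, the 3 without icKO IP replicate 1, and ran from -1.26 to 0.088 for Prph and from -0.055 to 0.20 for Ina. The cause of these changes was not tested. With the cell type scalings left aside, Nefh between IPs ran from 0.80 to 0.92, Nefm from 0.45 to 0.55 and Nefl from 0.37 to 0.50. With the replicate block 7277 genes and the same 7 of the 8 genes were called between IPs, with Nefh at 0.89. The replicate numbers carry no stated pairing. Prph, at 3 to 13 counts a library, is the gene limited by depth. All 10 marker list levels, icKO IP minus control IP, moved beyond the larger SD of the IP pairs when read as medians of log2 CPM. Neuron markers turned from -0.02 to 0.16, while astrocyte markers went from 0.06 to 0.35 and projection neuron markers from 0.10 to 0.52. Ependymal, fibroblast and microglia markers changed direction too, as given above. Mature oligodendrocyte, precursor, pericyte and endothelial markers stayed lower.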
